A study of Homo sapiens with 6 samples.

Results

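The replication-dependent histone genes are the clustered genes that make the bulk of the linker histone H1 and the core histones H2A, H2B, H3 and H4. They were measured here in etoposide-treated A549 cells labelled as H2AX knockdown and in their controls. The members are the genes whose current symbol is H2AW, H1-1 to H1-6, or H2AC, H2BC, H3C or H4C followed by a number. RefSeq and the array's annotation together held 69 such genes. Of these, 57 had a probe set annotated to that gene alone and make up the set described, among 18417 genes tested. They were 6 H1, 14 H2A, 16 H2B, 8 H3 and 13 H4 genes. H2AC7, H2AC18, H2AC19, H2BC15, H2BC18, H3C4, H3C6, H3C13, H3C14, H3C15, H4C11 and H4C12 had only probe sets shared with other genes, and have no value of their own here.

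All 6 samples were A549, a human lung adenocarcinoma cell line, kept as stable cells. After a night without serum they received VP-16 for 48 h. This is etoposide, which holds topoisomerase II on the DNA it has cut and leaves double-strand breaks. Cells with the genotype label H2AX knockdown, named P1 (3 arrays), were compared with cells labelled control, named C (3 arrays). H2AX is an H2A variant phosphorylated at double-strand breaks, and it is not a replication-dependent gene by the rule above. No untreated sample was analysed, so the comparison is between the labels, both under the drug, and the drug's own effect was not measured. The construct behind the knockdown, and whether each group is 1 stable line or several, are not stated in the sources used here. The samples of a group are independent experiments by the design text, and where the cells of a group came from a single line the p-values measure the spread between experiments alone. All values are log2 signals of Affymetrix probe sets.

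Replication-dependent histone genes are transcribed mainly in S phase, when new DNA must be packed into nucleosomes. Their messages have no introns and end in a stem-loop, bound by SLBP, in place of a poly(A) tail, and they are degraded when DNA synthesis stops. Some members, among them H2BC5, H2BC12 and H2BC21, can also give polyadenylated transcripts, which are seen in cells that have left the cycle. A labelling step primed on poly(A) tails would read the 2 kinds of transcript differently. The priming used is not stated in the sources used here, and its part in the signals was not tested. Genes of a family encode nearly the same protein, so probe sets of single members may also read their relatives.

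The labels were first checked on the targeted gene. The log2 signal of H2AX was 5.28, 5.17 and 5.49 in the knockdown-labelled arrays, against 5.11, 5.27 and 5.26 in the control arrays. The difference was 0.10 and its 95% interval ran from −0.25 to 0.45 (adjusted p = 0.823 in limma). An exact permutation test of 3 against 3 arrays, 2-sided, gave p = 0.4, with 0.1 the smallest possible. The knockdown named in the labels was thus not seen in this probe set, and the arrays are called knockdown-labelled throughout for that reason. Higher and lower refer to that label and not to a measured loss of H2AX. Knockdown-labelled replicate 1 and control replicate 1 stood at opposite ends of a first principal component that held 49.2% of the variance. Of the 57 histone members, 13 changed the sign of their difference without knockdown-labelled replicate 1, 6 without control replicate 1 and 18 without both. Values without them are given beside the members most affected. The 18 epithelial and A549 markers measured lay between the 17.2nd percentile of genes (EPCAM) and the 99.8th (KRT8). CDH1, which encodes E-cadherin, lay at the 87.6th, and SFTPB, SFTPC and SFTPD, surfactant genes of alveolar cells, at the 19.6th, 35.0th and 66.1st.

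No replication-dependent histone gene passed the test between the groups after adjustment over all genes, either way. The smallest limma adjusted p among the 57 was 0.251. Over all genes 0.0326% passed the threshold of 0.05 (6 genes), 0.0271% as lower and 0.00543% as higher. At an unadjusted p under 0.05, 2 members were lower and 2 higher, which is 7.02% of the members, against 12.2% of all genes. In each direction that is 3.51% of the members, against 8.38% of all genes for lower values and 3.78% for higher values. The 4 were the linker histone gene H1-1 and the H4 gene H4C2 on the higher side, and H2AC4 and H2BC12 on the lower side. That count was 2 with control replicate 1 left out, when all genes stood at 5.13%, and 7 with knockdown-labelled replicate 3 left out, when they stood at 15.9%. The groups did not overlap for 7 members (12.3%), against 17.0% of all genes. Of these 7, H2AC4 and H1-6 were lower (2 of 57, against 9.82% of all genes), and H1-1, H4C2, H2BC1, H4C13 and H4C6 were higher (5 of 57, against 7.17%).

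The differences were small. None of the 57 reached a 2-fold difference, which is 1 on the log2 scale, and 3 exceeded 0.5 in size. The 95% intervals reached between 0.33 and 0.70 to either side of a member's difference, with a median of 0.40. A member whose difference was smaller than the reach of its own interval thus had an unadjusted p over 0.05 in limma. H4C2 reached a limma unadjusted p of 0.0397 at a difference of 0.39. After adjustment over all genes larger differences also went uncalled, as that of H1-1 did at 0.76 (limma adjusted p = 0.251). The median difference over the members was 0.09, with 37 above 0 and 20 below, beside a median of −0.01 over all genes, with 8941 above 0 and 9476 below. The members' median was 0.04 after quantile normalization, after cyclic loess and with array medians subtracted, and 0.05 with array weights. The median member lay at the 37.8th percentile of mean signal. Signals of different probe sets do not compare amounts of transcript, and brightness is used below only to group probe sets.

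**Figure D1:**
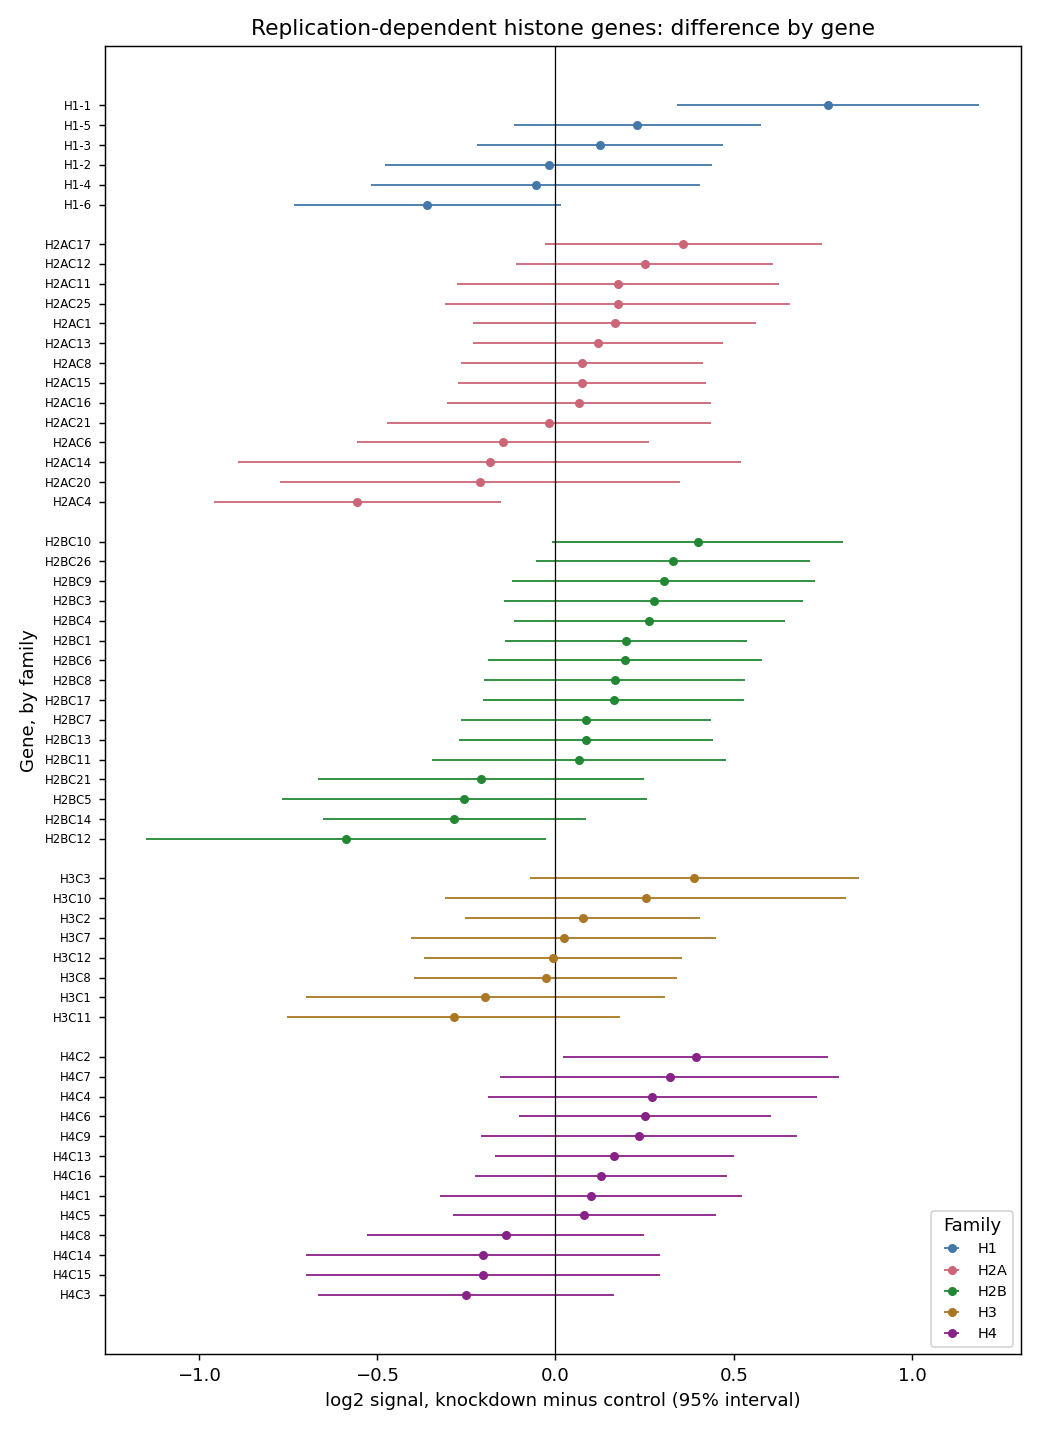
Difference in log2 signal, knockdown-labelled minus control, for each of the 57 members on the x axis, grouped by family on the y axis; points are the fitted differences and lines their 95% intervals. The intervals of H1-1 and H4C2 lie above 0 and those of H2AC4 and H2BC12 below it, while the other members' intervals include 0.

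The starts of the 4 genes with an unadjusted p under 0.05 are shown first, because they have the lowest p-values of the set. The boxes marked in them are not equally common in the families. Each sequence is the 200 bases before the RefSeq start on GRCh38.p14, read 5′ to 3′ on the gene's strand. Capitals mark the TATA box (TATAAA), the CCAAT box (CCAAT) and the octamer (ATTTGCAT), each in either orientation.
H1-1 (chr6:26017788-26017987, minus strand): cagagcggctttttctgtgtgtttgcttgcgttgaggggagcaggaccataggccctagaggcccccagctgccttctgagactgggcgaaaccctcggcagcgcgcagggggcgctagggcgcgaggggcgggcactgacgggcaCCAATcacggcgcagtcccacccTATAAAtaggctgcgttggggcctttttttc
H2AC4 (chr6:26033619-26033818, minus strand): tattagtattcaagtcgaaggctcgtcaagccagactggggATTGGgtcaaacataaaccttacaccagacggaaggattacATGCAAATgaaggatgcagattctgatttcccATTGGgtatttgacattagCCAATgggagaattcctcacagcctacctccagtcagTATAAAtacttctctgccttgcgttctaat
H2BC12 (chr6:27146859-27147058, minus strand): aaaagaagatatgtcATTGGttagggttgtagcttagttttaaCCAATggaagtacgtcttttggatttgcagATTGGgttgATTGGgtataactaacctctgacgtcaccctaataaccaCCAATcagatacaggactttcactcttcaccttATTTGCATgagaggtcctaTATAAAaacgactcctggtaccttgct
H4C2 (chr6:26027284-26027483, minus strand): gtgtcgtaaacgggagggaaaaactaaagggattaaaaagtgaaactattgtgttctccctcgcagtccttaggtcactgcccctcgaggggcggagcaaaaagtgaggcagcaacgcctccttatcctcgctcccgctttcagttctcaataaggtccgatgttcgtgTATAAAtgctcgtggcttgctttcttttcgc
In all of them a TATA box starts between positions −31 and −27 from the start. H1-1 has 1 CCAAT box, at −54. H2AC4 and H2BC12 each have an octamer, the site bound by OCT1 in H2B promoters, at −118 and −46, and 3 and 5 CCAAT boxes. In H2BC12 all 5 lie upstream of the octamer. H4C2 has neither a CCAAT box nor an octamer in this stretch. These matches are descriptions of the letters and not measured binding sites.

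The same letters were not equally common in the families. Among 64 members with an entry in RefSeq's table of promoters, each 300 bases long with 250 before and 50 after the start, the octamer was present in 14 of 18 H2B and 11 of 16 H2A genes. It was found in 1 of 11 H3 genes and in 0 of 6 H1 and 0 of 13 H4 genes, against 1.80% of 27305 promoters in all. A CCAAT box was present in every H1, H2A, H2B and H3 entry and in 3 of 13 H4 entries, against 35.7% of all promoters. A TATA box was present in 42 of 64 member promoters, against 3264 of 27305 in all. The 4 genes above thus cover the layouts with and without the octamer and with and without the CCAAT box, and members with each layout fell on both sides of 0.

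Linker histone genes encode the H1 proteins that sit on the DNA entering and leaving the nucleosome. Of the 6 measured, 3 were above 0 and 3 below, with a median difference of 0.05. H1-1, at the 30.1st percentile of signal, had the largest difference of all members. Its log2 signal (probe set 8124380) was 3.43, 3.05 and 3.72 in the knockdown-labelled arrays, against 2.50, 2.53 and 2.89 in the control arrays. All 3 knockdown-labelled arrays were above all 3 controls, with a difference of 0.76 ± 0.20 (SE), a ratio of 1.70 (limma unadjusted p = 0.00181, adjusted p = 0.251). Leaving out each array in turn, the difference ran from 0.60 to 0.94. H1-6, the testis-specific H1, had the largest negative difference of the family. It read 1.93, 2.35 and 2.27 in the knockdown-labelled arrays, against 2.42, 2.72 and 2.49 in the controls, at the 13.7th percentile of signal. These do not overlap, and the difference was −0.36 ± 0.17 (SE), with a limma unadjusted p of 0.0581. Without knockdown-labelled replicate 1 it was −0.23.

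H1-4, one of the common somatic H1 genes, had the highest signal of any member probe set, at the 99.4th percentile of genes. Its start is shown for comparison with that of H1-1.
H1-4 (chr6:26156129-26156328, plus strand): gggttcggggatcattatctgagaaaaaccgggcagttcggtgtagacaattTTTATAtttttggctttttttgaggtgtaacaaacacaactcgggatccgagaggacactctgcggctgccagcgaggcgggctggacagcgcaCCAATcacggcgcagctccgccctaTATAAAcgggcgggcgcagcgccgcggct
H1-4 has a TATA box at −29 and a CCAAT box at −54, as H1-1 does at −31 and −54, and a further TATAAA in reverse at −148. It read 8.18, 8.95 and 8.87 in the knockdown-labelled arrays, against 8.82, 8.46 and 8.88 in the controls. Knockdown-labelled replicate 1 was the lowest, the other arrays of both groups overlapped, and the difference was −0.05 with a 95% interval of −0.52 to 0.41. Without that array it was 0.19. H1-2, another somatic H1, had a difference of −0.02 (95% interval −0.48 to 0.44), and likewise turned above 0 without knockdown-labelled replicate 1, to 0.10. H1-3 and H1-5, also somatic, had differences of 0.12 and 0.23.

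**Figure D2:**
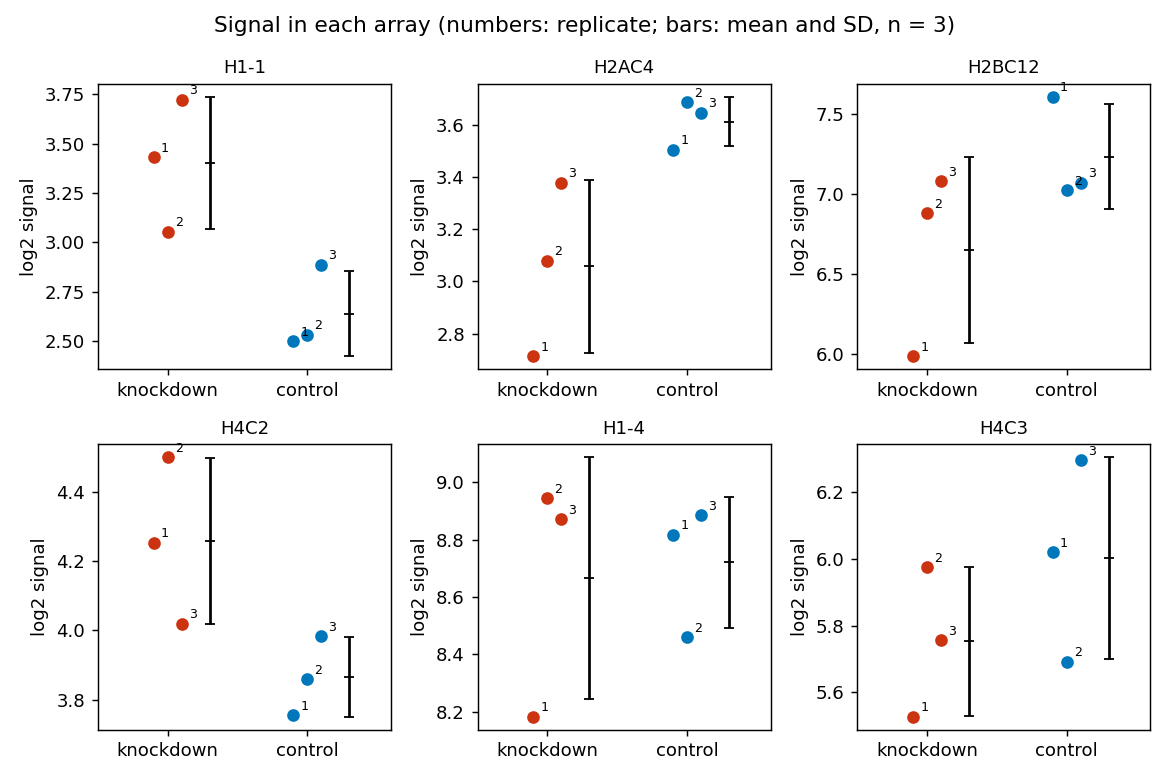
Log2 signal (y axis) in each knockdown-labelled array on the left and each control array on the right of every panel, for the 4 genes with an unadjusted p under 0.05 and for the brightest member of H1 and of H4; numbers are replicates and bars the mean and SD of 3 arrays. H1-1, H2AC4 and H4C2 do not overlap between the groups, while H2BC12, H1-4 and H4C3 do.

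H2A genes encode the core histone that pairs with H2B in the nucleosome and of which H2AX is a variant. Of 14 measured, 9 were above 0 and 5 below, with a median of 0.07. H2AC4 read 2.71, 3.08 and 3.38 in the knockdown-labelled arrays, against 3.50, 3.69 and 3.65 in the controls. Every knockdown-labelled array was below every control, and the difference was −0.55 ± 0.19 (SE), a ratio of 0.681 (limma unadjusted p = 0.0104, adjusted p = 0.312). It ran from −0.71 to −0.38 when each array was left out, and was −0.38 without knockdown-labelled replicate 1. H2AC17 had the largest positive value of the family, at 0.36 ± 0.18 (SE). It read 2.90, 2.35 and 2.87 in the knockdown-labelled arrays, against 2.39, 2.34 and 2.32 in the controls, so that knockdown-labelled replicate 2 lay among the controls.

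The 2 brightest H2A probe sets, those of H2AC20 and H2AC21, belong to neighbours on chromosome 1. H2AC20 read 3.99, 4.96 and 5.07 in the knockdown-labelled arrays, against 4.81, 4.62 and 5.22 in the controls. The low value of knockdown-labelled replicate 1 set its difference of −0.21, which was 0.13 without that array. H2AC21 went the other way in the same array, with 5.27, 4.37 and 4.69 in the knockdown-labelled arrays, against 4.86, 4.69 and 4.83 in the controls, and a difference of −0.02 (95% interval −0.47 to 0.44). H2AC1, which is expressed in testis, stood at the 10.4th percentile of signal with a difference of 0.17. H2AC25, also called H2AW and lying apart from the larger group on chromosome 1, had the same rounded difference of 0.17, which was −0.09 without knockdown-labelled replicate 1.

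H2B genes held 12 members above 0 and 4 below of 16, with the highest median of the families, 0.16. H2BC12 read 5.99, 6.88 and 7.08 in the knockdown-labelled arrays, against 7.61, 7.02 and 7.07 in the controls. The groups overlapped, because knockdown-labelled replicate 3 was above control replicates 2 and 3. Its difference was −0.59 ± 0.26 (SE), a ratio of 0.666 (limma unadjusted p = 0.0416, adjusted p = 0.398). This value rested on 2 arrays: it was −0.26 without knockdown-labelled replicate 1, −0.40 without control replicate 1 and −0.07 without both. H2BC21, which like H2BC12 can give polyadenylated transcripts, read 4.81, 5.64 and 5.58 in the knockdown-labelled arrays, against 5.61, 5.57 and 5.48 in the controls. Again only knockdown-labelled replicate 1 was apart, and the difference of −0.21 became 0.06 without it. H2BC5 had a difference of −0.26 (95% interval −0.77 to 0.26), which was −0.01 without knockdown-labelled replicate 1 and −0.09 without control replicate 1.

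On the positive side of the H2B genes, H2BC10 had the largest value, 0.40 ± 0.19 (SE), with a limma unadjusted p of 0.0545. It read 2.64, 2.28 and 2.24 in the knockdown-labelled arrays, against 1.85, 1.80 and 2.32 in the controls, and control replicate 3 lay within the knockdown-labelled range. The difference was 0.22 after quantile normalization, 0.23 after cyclic loess, 0.12 with array weights and 0.20 without both replicate 1 arrays. H2BC9 was the only bright H2B member above 0. Its knockdown-labelled arrays were close together at 5.23, 5.21 and 5.26, against 4.51, 4.99 and 5.30 in the controls, a difference of 0.30 that was 0.09 without control replicate 1. H2BC1, a testis H2B gene, did not overlap between the groups, with 2.30, 2.36 and 2.57 in the knockdown-labelled arrays, against 2.22, 2.22 and 2.20 in the controls. Its difference was 0.20 ± 0.16 (SE), at the 12.3rd percentile of signal, and 0.12 without knockdown-labelled replicate 3.

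H3 genes, 4 above 0 and 4 below of 8 measured, had a median of 0.01. H3C11, the brightest, read 4.22, 4.89 and 4.35 in the knockdown-labelled arrays, against 4.89, 4.39 and 5.03 in the controls. The arrays interleave, and the difference was −0.28 with a 95% interval of −0.75 to 0.18. It was −0.15 without knockdown-labelled replicate 1 or without control replicate 3, −0.49 without knockdown-labelled replicate 2, −0.47 without control replicate 2 and −0.09 without both replicate 1 arrays. H3C3 had the largest positive value, 0.39 ± 0.21 (SE), with 4.29, 3.72 and 3.35 in the knockdown-labelled arrays, against 3.34, 3.51 and 3.34 in the controls. Knockdown-labelled replicate 3 was level with the controls, and without knockdown-labelled replicate 1 the value was 0.14. H3C7 had a difference of 0.02 (95% interval −0.40 to 0.45).

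H4 genes encode the most conserved core histone, and all but a few of them encode the same protein. Of 13 measured, 9 were above 0 and 4 below, with a median of 0.13. H4C2 read 4.25, 4.50 and 4.02 in the knockdown-labelled arrays, against 3.75, 3.86 and 3.98 in the controls. The groups did not overlap, though knockdown-labelled replicate 3 and control replicate 3 were nearly level, and the difference was 0.39 ± 0.17 (SE), a ratio of 1.31 (limma unadjusted p = 0.0397, adjusted p = 0.394). It ran from 0.27 to 0.51 with each array left out. H4C13 and H4C6, both dim, also did not overlap, with differences of 0.16 and 0.25 and limma adjusted p of 0.679 and 0.540.

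The brightest H4 probe set, H4C3, had the largest negative value of the family. It read 5.53, 5.98 and 5.76 in the knockdown-labelled arrays, against 6.02, 5.69 and 6.30 in the controls, and a difference of −0.25 with a 95% interval of −0.66 to 0.16. The difference was −0.14 without knockdown-labelled replicate 1, −0.10 without control replicate 3 and −0.41 without control replicate 2. After quantile normalization it was −0.04 and after cyclic loess −0.01, while array weights gave −0.38. H4C5 read 5.22, 5.24 and 5.44 in the knockdown-labelled arrays, against 5.28, 4.97 and 5.41 in the controls, a difference of 0.08 (95% interval −0.29 to 0.45). H4C14 and H4C15 carried identical values in all 6 arrays, so the 57 members hold 56 distinct profiles. Their difference was −0.20, and 0.00 without knockdown-labelled replicate 1. Another profile, of probe sets annotated to both genes at once, had a difference of −0.40. H4C16, which lies outside the clusters on chromosome 12, had one of 0.13.

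By group mean, bright members were lower under the knockdown label and dim members higher, as genes were in general. The SD of log2 signal over all probe sets was 1.6, 1.736 and 1.708 in knockdown-labelled replicates 1, 2 and 3. In control replicates 1, 2 and 3 it was 1.855, 1.77 and 1.795, so every knockdown-labelled array was narrower than every control. The counts by bin were not repeated after quantile normalization, and the part of this spread in them was not tested. With all genes placed in 5 bins by mean signal, 35 of 42 members in the 3 dimmer bins were above 0, with a median of 0.17, beside a median of 0.08 and 64.7% above 0 over all genes of those bins. In the 2 brighter bins 13 of 15 members were below 0, with a median of −0.20, beside a median of −0.18 and 24.3% above 0 over all genes. H4C14 and H4C15, which share their values, are both among the 13. Without knockdown-labelled replicate 1, 7 of these 15 were below 0 and their median was 0.00. Without control replicate 1, 8 were below 0 with a median of −0.01, and without both arrays 5 were, with a median of 0.09. The medians of all genes of these bins were −0.10, −0.13 and −0.07 in those 3 settings. For the 42 dimmer members the median was 0.11 without knockdown-labelled replicate 1 and 0.08 without both arrays, with 32 and 27 above 0. The members of the middle bin had a median of 0.15, with 11 of 12 above 0, where all genes had one of −0.01 and 51.3% were below 0. That difference between the members and all genes was not tested.

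**Figure D3:**
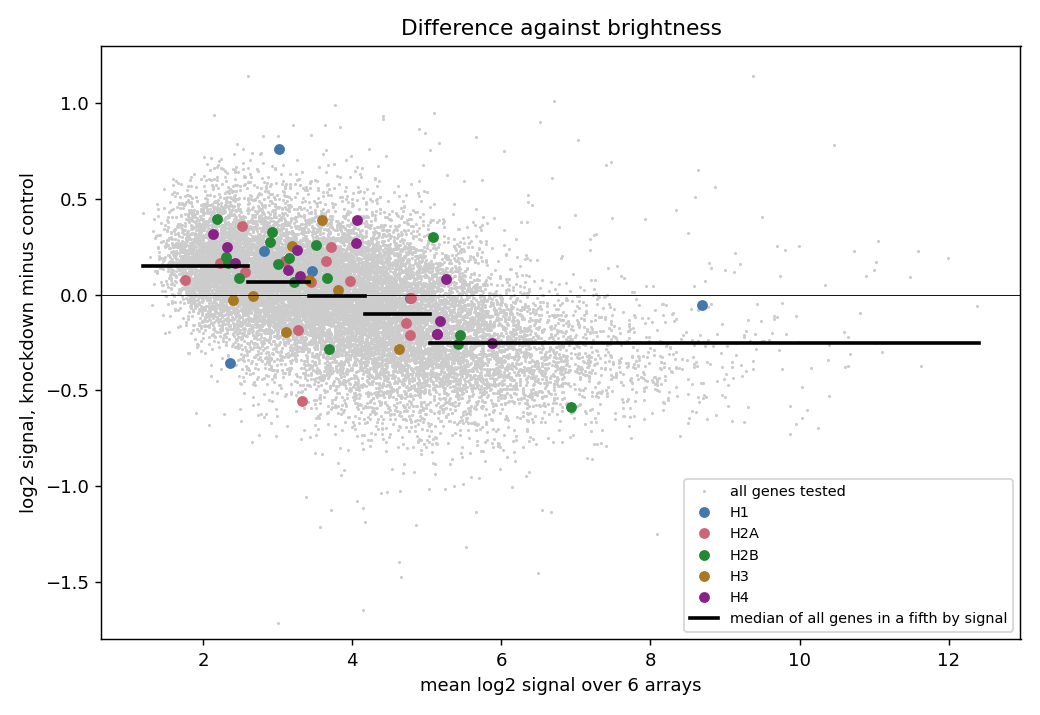
Difference in log2 signal, knockdown-labelled minus control (y axis), against mean log2 signal over 6 arrays (x axis) for all genes tested in grey and the histone members in colour by family; black bars are medians of all genes in 5 bins of mean signal. Most members with a mean signal below 4.17 lie above 0 and most of the brighter ones below it, as the grey genes do.

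The bright members were lowest mainly in 1 array. Among the 15 members of the 2 brighter bins, knockdown-labelled replicate 1 held the lowest value for 10, and control replicate 1 the highest for 7. Measured from the control mean, the median of these 15 was −0.54, 0.05 and −0.04 in knockdown-labelled replicates 1, 2 and 3, against 0.12, −0.26 and 0.11 in control replicates 1, 2 and 3. For all genes of the same bins it was −0.32, −0.09 and −0.11 in the knockdown-labelled arrays, against 0.10, −0.09 and −0.01 in the controls. Knockdown-labelled replicates 2 and 3 thus lay within the range of the controls for the bright histone genes. The 42 dimmer members had medians of 0.18, 0.14 and 0.09 in the knockdown-labelled arrays, against −0.05, 0.00 and 0.03 in the controls. These do not overlap, and the corresponding medians of all genes were 0.13, 0.04 and 0.03, against −0.05, 0.05 and −0.02.

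**Figure D4:**
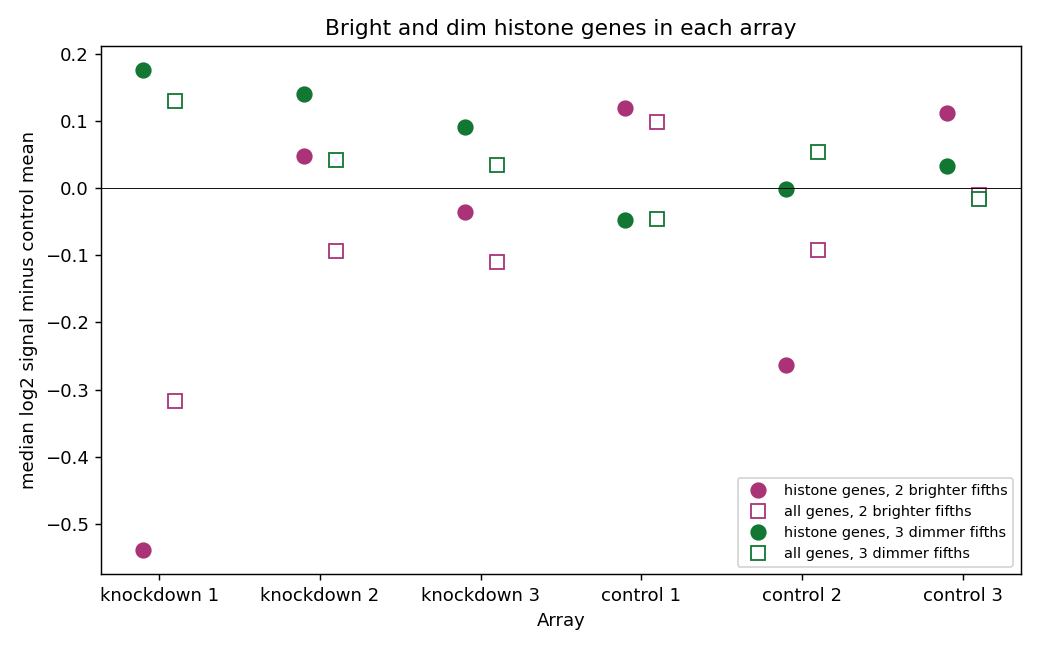
Median log2 signal minus the control mean (y axis) in each array (x axis, knockdown-labelled on the left), for histone members and for all genes in the 2 brighter and 3 dimmer bins of mean signal. Bright members stand at −0.54 in knockdown-labelled replicate 1, and dim members lie above the controls in each knockdown-labelled array.

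Histone genes of H2A and H2B often lie head to head and share the stretch between their starts. RefSeq's starts gave 11 such pairs with 193 to 247 bases between them, and both genes had a value in 9. The stretch shared by H2BC21 and H2AC20 is shown because that pair had the highest summed signal of the 9; it is written on the strand of H2AC20.
H2AC20 (chr1:149886683-149886917, plus strand): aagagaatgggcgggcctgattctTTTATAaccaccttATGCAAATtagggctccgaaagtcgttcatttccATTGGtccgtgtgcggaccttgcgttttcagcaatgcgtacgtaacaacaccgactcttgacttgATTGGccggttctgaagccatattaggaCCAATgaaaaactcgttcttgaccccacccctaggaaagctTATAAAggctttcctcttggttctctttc
It holds a TATA box near each end, facing outwards to each gene, with an octamer beside that of H2BC21 and 3 CCAAT boxes. The 2 genes had nearly the same difference, −0.21 each, and both were low in knockdown-labelled replicate 1. In 8 of the 9 pairs the partners' differences had the same sign, and in 7 or 8 with any 1 array left out. H2BC4 and H2AC6 were the exception, with 0.26 for H2BC4 at a control mean of 3.39, and −0.15 for H2AC6 at a control mean of 4.80. H2AC17 and H2BC17 were both above 0 (0.36 and 0.16), as were H2AC25 and H2BC26 (0.17 and 0.33), and H2AC14 and H2BC14 were both below it (−0.18 and −0.28). Among all measured members, 9 of 14 H2A and 12 of 16 H2B genes were above 0. Whether partners shared a sign more often than unpaired H2A and H2B genes was not tested.

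By place, the 5 measured members of the larger group on chromosome 1 (H4C14, H4C15, H2BC21, H2AC20 and H2AC21) were all below 0, with a median of −0.20. All 5 are in the 2 brighter bins, and H4C14 and H4C15 share their values. Without knockdown-labelled replicate 1, 1 of the 5 (H2AC21) was below 0 and the median was 0.00, and without control replicate 1 it was 0.01. The members on chromosome 6 fell into 3 stretches separated by more than 300 kb, with 31, 5 and 13 genes and medians of 0.10, 0.18 and 0.09. H1-1, H2AC4 and H4C2 lie in the stretch of 31, and H2BC12 in that of 5.

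Probe sets shared by several genes, at least 1 of them a replication-dependent histone gene, were read without gene names, except for H4C14 and H4C15. There were 20, with 17 distinct profiles, of which 10 were below 0 and 7 above. Their differences ran from −0.40 to 0.20, and the smallest limma unadjusted p was 0.106 in a fit over all 33297 probe sets. None of these probe sets reached an unadjusted p under 0.05 in limma.

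Genes that make and handle histone messages were counted beside the members. Of 27 measured genes of histone 3′ end processing and message decay, 0 passed the adjusted threshold (limma). An unadjusted p under 0.05 was reached by 6, all lower (22.2% of the list, against 8.38% of all genes). The list's median was −0.20, with 21 below 0, at a median signal in the 69.8th percentile. All genes of the bin that holds this signal had a median of −0.10, and those of the brightest bin one of −0.25. SLBP, which binds the stem-loop, read 4.76, 5.11 and 5.33 in the knockdown-labelled arrays, against 5.79, 5.46 and 5.30 in the controls. Its groups overlapped, with a difference of −0.45 ± 0.19 (SE) and a limma adjusted p of 0.388, and the difference was −0.16 without both replicate 1 arrays. COIL, the scaffold of Cajal bodies, did not overlap, with a difference of −0.48. Neither did CPSF2, a subunit of the cleavage complex (−0.56), or TUT7, a uridyltransferase (−0.47), all at a limma adjusted p of 0.312 to 0.327. Without both replicate 1 arrays COIL was −0.36, CPSF2 −0.26 and TUT7 −0.43. LSM10 and LSM11, proteins of the U7 particle that cuts histone messages, had differences of 0.09 and −0.14, and CASP8AP2, which acts with them, had one of 0.37 (limma adjusted p = 0.423).

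Of 20 genes of histone gene transcription, 0 passed and 3 were lower at an unadjusted p under 0.05 (15.0%, against 8.38% of all genes). The list's median was −0.21, at a median signal in the same bin as the list before. NPAT, the cyclin E-CDK2 substrate that activates histone genes, read 3.29, 3.48 and 3.55 in the knockdown-labelled arrays, against 3.58, 3.60 and 3.98 in the controls. These do not overlap, and the difference was −0.28 ± 0.17 (SE) with a limma adjusted p of 0.515. NFYA and NFYC, subunits of the factor that binds CCAAT boxes, had differences of −0.50 and −0.36, and RB1, which restrains E2F, one of −0.46. Without both replicate 1 arrays NFYA was −0.21 and RB1 −0.25. CDKN1A, the p53-induced inhibitor of CDK2, had a difference of −0.25 (95% interval −0.68 to 0.17) at the 97.2nd percentile of signal, and −0.06 without knockdown-labelled replicate 1. Of 29 histone chaperone and import genes 0 passed and 3 were lower at an unadjusted p under 0.05, which is 10.3%, near the 8.38% of all genes. These were NAP1L1 (−0.57), which carries H2A and H2B, NPM1 (−0.55), a nucleolar chaperone, and SUPT16H (−0.68), a subunit of FACT, which was −0.21 without both replicate 1 arrays.

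Replication-independent histone genes, which are expressed through the cycle and give polyadenylated messages, had 15 measured members, a median of −0.03 and 0 past the adjusted threshold (limma). H2AZ1 (−0.55) and H3-3B (−0.36) were the 2 at an unadjusted p under 0.05 (13.3% of the list, against 8.38% of all genes for lower values). Neither overlapped between the groups. H2AZ1 read 5.62, 5.48 and 5.30 in the knockdown-labelled arrays, against 5.82, 6.00 and 6.23 in the controls. That difference and those of H2AC4 and H2BC12 are of like size, but H2AZ1 and H2BC12 lie in the brightest bin, where the median of all genes was −0.25, and H2AC4 in the second dimmest, where it was 0.07.

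S phase, in which the members are mainly transcribed, was read from 39 DNA replication genes. They had a median of 0.01, with 21 above 0 and 18 below, and 0 past the adjusted threshold (limma). At an unadjusted p under 0.05, 4 genes were lower (10.3%, against 8.38% of all genes). In the other direction 1 gene was higher (2.56%, against 3.78% of all genes). PCNA, the sliding clamp of replication, read 6.28, 6.30 and 6.69 in the knockdown-labelled arrays, against 7.39, 6.94 and 7.05 in the controls, a difference of −0.71 without overlap (limma adjusted p = 0.257). RFC4 (−0.61) and RRM1 (−0.58) were also lower at an unadjusted p under 0.05. Without both replicate 1 arrays PCNA was −0.50, RFC4 −0.47 and RRM1 −0.25. The mean log2 signal over the list was 3.49 to 3.57 in the knockdown-labelled arrays, against 3.51 to 3.60 in the controls. For 30 genes of G2 and mitosis it was 3.13 to 3.19, against 3.17 to 3.26 in the controls, with a median difference of 0.03. Of these 30, 0 passed the adjusted threshold (limma). At an unadjusted p under 0.05, 3 were lower (10.0%, against 8.38% of all genes) and 1 higher (3.33%, against 3.78%). The lower ones were CKS2 (−0.78), AURKA (−0.73) and KIF20A (−0.57). Without both replicate 1 arrays they were −0.42, −0.25 and −0.52. In a bulk sample, the number of cells in S phase and the amount of histone message per cell cannot be told apart.

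Marker lists of other cell types were measured in the same way. Fibroblast markers had a mean signal of 3.35 to 3.63 in the knockdown-labelled arrays, against 3.15 to 3.24 in the controls, with 14 of 15 above 0 and 0 markers at 0. Their median difference was 0.23 at a median signal in the 37.1st percentile, near that of the histone members, and the markers lay between the 1.09th percentile (LUM) and the 82.0th (COL1A1). In the second dimmest bin, which holds that median signal, 36.1% of all genes were below 0, with a median of 0.07. POSTN, LUM and DCN had the largest differences of the fibroblast list, 0.48, 0.47 and 0.46, with limma unadjusted p of 0.00983, 0.0321 and 0.0560. Blood and immune markers had a mean signal of 3.49 to 3.62, against 3.42 to 3.62 in the controls, with 12 of 17 above 0. Lung epithelial and A549 markers had one of 5.87 to 6.10, against 6.16 to 6.25 in the controls, with 14 of 18 below 0. Their median difference was −0.18 at a median signal in the 92.3rd percentile. In the brightest bin, which holds this signal, 85.3% of all genes were below 0, with a median of −0.25. None of the markers in these lists passed the adjusted threshold in limma. At an unadjusted p under 0.05 there were 4 epithelial markers, all lower (22.2%, against 8.38% of all genes). The lowest p of these belonged to CLDN1 (−0.74), ALDH1A1 (−0.61) and AKR1C1 (−0.58), at 0.000854, 0.00292 and 0.00895 in limma. Without both replicate 1 arrays the differences were −0.59, −0.44 and −0.31. The fibroblast list had 2, all higher (13.3%, against 3.78% of all genes). The blood list had 1 lower and 1 higher (5.88% each). The part of the markers in the histone values was not tested.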

How the data were processed

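The authors deposited log2 signals for 33297 probe sets on 6 arrays. RMA made them, per the submitters' processing notes, and no version is given in the sources used here. They ran from 0.611 to 13.2, from which the log scale was taken. RMA compresses differences of dim probe sets, and background cannot be read from these values, so no gene was called absent. The number of arrays limits the precision. No dose is given because its unit in the labels is incomplete.

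Groups came from the sample titles. Probe sets were named through the platform's annotation and RefSeq, and each of 18417 genes kept its brightest single-gene probe set by mean signal, with no filter. Limma 3.58.1 in R 4.3.3 (lmFit, eBayes) tested knockdown-labelled minus control, 2-sided, over all genes at once, with p-values adjusted by Benjamini-Hochberg and called at 0.05. The procedure was tested on simulated arrays with independent noise for each gene. These cannot show how it handles differences that many genes of an array share. The members and lists were chosen with earlier results of these data known. The rule for naming took members with an unadjusted p under 0.05 and, per family, the 2 brightest and the largest positive and negative differences, plus core regulators and up to 3 genes per list. Other members were named after their values were seen. Lists got no test. Promoters are RefSeq's, on GRCh38.p14. Alternatives were a replicate block, a signal filter, quantile normalization, median subtraction, cyclic loess, averaged or separate probe sets, an intensity trend with robust variance, weights for arrays, and leaving out each array.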

Additional observations from a re-analysis of the deposited data

How the results depend on the processing

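No histone member passed the adjusted threshold (limma) under any alternative run; the smallest adjusted p was 0.0891, with array weights. At an unadjusted p under 0.05 there were 4 members, 2 with the replicate block, 2 among the 19 members over the median signal, and 2 to 7 with an array left out. The members' median of 0.086 was 0.039 after quantile normalization, 0.038 with array medians subtracted, 0.042 after cyclic loess, −0.14 among the 19, and 0.074 to 0.11 with an array left out. Genes called, 6 of all, were 3 with the block, 16 over the median signal, 0 after quantile normalization, 0 after cyclic loess, 3 with probe sets averaged, 191 with array weights and 0 to 9 with an array left out. Over these settings 944 to 3592 genes had an unadjusted p under 0.05 in limma, where the run over the median signal tested 9208 genes. Without knockdown-labelled replicate 1 and control replicate 1 together, a setting chosen after seeing the data, 0 genes were called. In that setting 876 genes had an unadjusted p under 0.05 in limma, 3 of them members. H2AX was not called under any alternative, with differences of 0.01 to 0.28.

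Of 249 values of the 17 members followed, 222 kept their sign and 27, in 7 members, changed it; none was called. H1-2 was 0.088 after quantile normalization, 0.092 after cyclic loess, −0.26 to 0.11 with an array left out and 0.23 without both arrays. H1-4 was 0.11, 0.17, −0.19 to 0.19 and 0.24 in that order. H2AC20 was −0.41 to 0.13 with an array left out and 0.089 without both, and H2BC21 −0.36 to 0.060 and 0.088. H2AC21 was 0.11 after quantile normalization, 0.094 after cyclic loess and −0.27 to 0.18 with an array left out. H3C7 was −0.026 with array medians subtracted, −0.15 to 0.24 with an array left out and −0.043 without both. H4C5 was −0.047 with array weights and −0.045 to 0.18 with an array left out. The cause was not tested.

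Whether the replicate numbers pair the samples cannot be settled from 3 arrays a group. The deviations of same-numbered arrays from their group means correlated at −0.31, −0.02 and 0.07. Those of differently numbered arrays correlated at −0.385 to 0.366. With the block the differences were the same and 2 members had an unadjusted p under 0.05.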
